A study of Mus musculus with 2 samples.

Results

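The cells described here, called members below, had at least 20 Cga UMIs per 10000 UMIs of the cell (CP10K), where a UMI stands for 1 captured RNA molecule. The rule was meant to find endocrine cells of the pars tuberalis, and most members carried the thyrotropin and granule genes of such cells. The fit was not complete, since 20 of the 65 had no Tshb UMI and 5 had no UMI of the granins Chga, Chgb or Scg2, so they are named by the Cga rule and not as 1 cell type. It used Cga alone, the gene of the glycoprotein hormone alpha subunit, and found 65 of the 7418 cells in the merged count table, 0.876% (95% exact Clopper-Pearson interval 0.677 to 1.12%). The study compared mice heterozygous for both Irx3 and Irx5, genotype Ins2-Cre;tdTomato+/-;Irx3/5+/- (dHet), with mice of genotype Ins2-Cre;tdTomato+/- (control). Both groups were CD-1 mice at postnatal day 10, and both carried the Ins2-Cre driver and the tdTomato reporter. For each genotype, dissected arcuate nucleus and median eminence of 5 mice were pooled, live tdTomato-positive cells were sorted, and 1 droplet library was sequenced. The cells therefore stand for whatever Ins2-Cre had marked in that tissue, and all shares below are shares of sorted cells. With 1 pool per genotype there is no replicate, so no test is given, and intervals cover counting error only.

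The pars tuberalis is the thin sleeve of pituitary tissue around the stalk, lying directly beneath the median eminence. Its main endocrine cell makes thyrotropin, a hormone built from the alpha subunit (Cga) and a specific beta subunit (Tshb), and carries the melatonin receptor MT1 (Mtnr1a), through which night length sets its output in seasonal mammals. There, thyrotropin from this tissue acts on receptors of neighbouring tanycytes, which then change the local supply of active thyroid hormone. Thyrotrophs of the main anterior lobe also make Cga and Tshb, but depend on the transcription factor Pou1f1 and respond to thyrotropin-releasing hormone through Trhr.

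The upstream sequences of both thyrotropin subunit genes are shown because the results turn on these genes. They are the 250 bases before the annotated start in RefSeq (GRCm38.p6), given 5′ to 3′ on the strand of the gene, for Cga at chr4:34893529-34893778 (plus strand) and for Tshb at chr3:102782715-102782964 (minus strand). Capitals mark matches to 6 motifs searched on both strands: TGANGTCA as a CRE-like element, GATAA for factors of the GATA family, TAATCC for Pitx factors, CACGTG as an E-box, TTANGTAA as a D-box, and TATAAA for the TATA box.
Cga: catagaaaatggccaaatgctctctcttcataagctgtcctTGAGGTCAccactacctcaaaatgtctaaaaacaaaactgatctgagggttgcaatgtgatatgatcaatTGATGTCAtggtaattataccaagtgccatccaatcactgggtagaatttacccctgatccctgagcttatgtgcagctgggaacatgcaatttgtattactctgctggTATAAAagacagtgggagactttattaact
Tshb: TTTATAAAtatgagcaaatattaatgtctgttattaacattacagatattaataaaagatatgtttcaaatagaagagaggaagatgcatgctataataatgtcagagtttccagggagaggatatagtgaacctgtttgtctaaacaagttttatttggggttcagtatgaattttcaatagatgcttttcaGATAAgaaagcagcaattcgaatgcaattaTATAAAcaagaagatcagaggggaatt

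In the Cga window, 2 CRE-like matches began 209 and 139 bases before the start, and 1 TATAAA match began 30 bases before it. CRE-like matches were present in 7.49% of the 32851 RefSeq windows of the same length. In the Tshb window, GATAA began 57 bases before the start and TATAAA 27 bases before it, and the far end held 2 overlapping TATAAA matches on opposite strands. GATAA was present in 22.6% of all windows and TATAAA in 12.4%. The Pitx, E-box and D-box letters, present in 6.25%, 6.02% and 2.06% of all windows, were in neither window.

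The gene of the alpha subunit, Cga (ENSMUSG00000028298), spans chromosome 4 from 34893779 to 34907370 on the plus strand, and Tshb (ENSMUSG00000027857) spans chromosome 3 from 102775465 to 102782718 on the minus strand (GENCODE, GRCm38).

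The dHet library held 3939 cells with 71827597 UMIs and the control library 3479 cells with 63100794 UMIs. Among members, UMIs per cell ranged from 551 to 26900 in the dHet library (median 8993) and from 533 to 31564 in the control library (median 13328), and 3 dHet and 4 control members had fewer than 2000. No cell barcode of a member was shared between the libraries. The doublet caller scored only barcodes with at least 500 genes and at most 20% mitochondrial UMIs, so not all members were scored. It marked 0 members, and 0.779% of the dHet and 0.642% of the control barcodes that it scored. The targeted genes were barely captured: over all cells Irx3 stood at 0.599 CPM (UMIs per 1000000 UMIs) in the dHet library and 1.51 CPM in the control library, and Irx5 at 1.53 and 2.88 CPM in the same order. In members, Irx3 had 3 UMIs in the dHet library and 0 in the control library, and Irx5 had 1 and 0. The 3 Irx3 UMIs are 13.5 CPM of the dHet members, and a count of 0 allows up to 5.03 CPM in the control members.

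Members made up 21 of 3939 dHet cells, 0.533% (0.330 to 0.814%), and 44 of 3479 control cells, 1.26% (0.920 to 1.69%). The share in the dHet library was 0.422 times that in the control library (exact conditional interval 0.238 to 0.724). With at least 1 Tshb UMI also asked for, 12 dHet and 33 control members remained, a ratio of 0.321 (0.151 to 0.638). Whether the pools differed in how much pituitary stalk tissue the dissection took, or how many such cells passed the sort, cannot be told apart from genotype.

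Cga itself chose the cells and is given as a description. It ranged from 36.0 to 1080 CP10K in dHet members, with a median of 274, and from 25.8 to 1803 CP10K in control members, with a median of 590. The lowest members had 25.8, 29.2, 36.0, 37.1 and 44.8 CP10K, and the highest cells left outside had 19.7, 18.3, 15.4, 14.8 and 14.6 CP10K. The member at 29.2 CP10K held only 2 Cga UMIs among 684 UMIs. Summed over cells, Cga took up 40394 CPM in dHet members and 68471 CPM in control members, against 1.76 CPM in all other dHet cells and 6.29 CPM in all other control cells. The 65 members held 99.0% of all Cga UMIs of the merged table. Elsewhere 4.61% of cells had a Cga UMI at a median depth of 17012 UMIs, and in 287 cells with at least 2 CP10K of the tanycyte gene Rax the share was 2.79%.

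Tshb, the subunit that makes the hormone thyrotropin, was found in 45 of 65 members. In the dHet library 12 of 21 members had a Tshb UMI, with values from 0 to 22.9 CP10K and a median of 0.889. In the control library 33 of 44 did, with values from 0 to 223 CP10K and a median of 11.9. The ranges overlapped, and the 17 highest values of all belonged to control members. In summed UMIs Tshb stood at 386 CPM in dHet members and 3670 CPM in control members, against 0.112 and 0.320 CPM in the other cells of the same libraries. Members held 98.8% of all Tshb UMIs. Of all other cells 0.354% had a Tshb UMI and none more than 2. No Rax cell had one, at median depths of 12264 UMIs in members and 9091 UMIs in Rax cells.

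**Figure D1:**
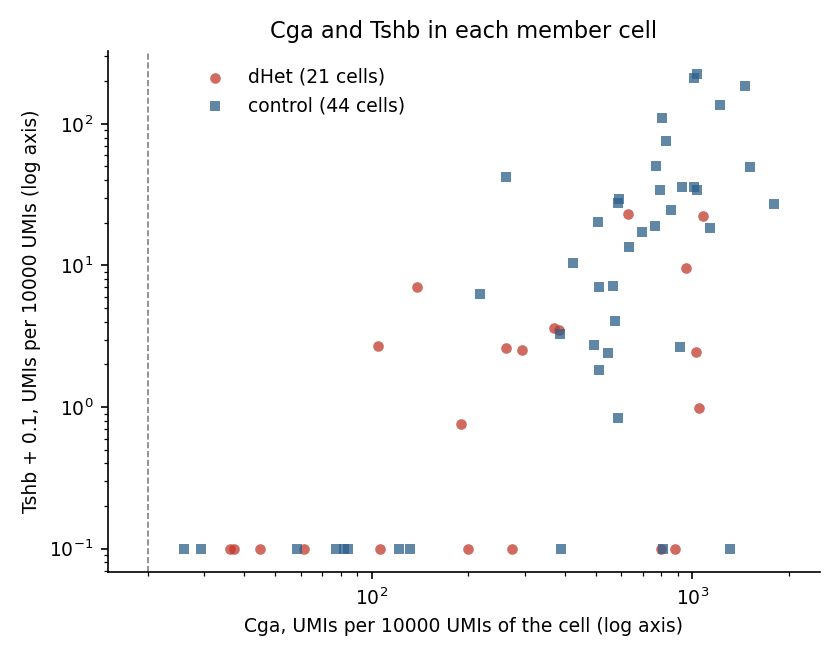
Cga (x axis) and Tshb plus 0.1 (y axis) in each member cell, in UMIs per 10000 UMIs on log axes, for 21 dHet and 44 control cells, with the dashed line at the 20 CP10K rule. Cells without a Tshb UMI lie at 0.1; most of them have Cga under 500 CP10K, and the 8 highest Tshb values belong to control cells with Cga above 500 CP10K.

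Other pituitary hormones were nearly absent. Lhb, the luteinizing hormone beta subunit, had 0 UMIs in dHet members and 11 in control members, and Fshb, the follicle-stimulating hormone beta subunit, had 0 and 1. Gpha2, an alternative alpha subunit, had 7 and 1 UMIs. In the sample matrices growth hormone (Gh), prolactin (Prl) and the thyrostimulin subunit Gphb5 had 0 UMIs in members of both libraries. Pomc, the precursor of corticotropin in the pituitary and a neuropeptide gene of arcuate neurons, stood at 4.49 CPM in dHet members and 6.71 CPM in control members, against 419 and 255 CPM in the other cells.

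Some transcription factors of the pituitary were far higher in members than in the rest of the sorted cells. Of 18 listed factors with enough UMIs (at least 50 over all cells), 8 were at least 2-fold higher in members than in the rest in both libraries, 1 was at least 2-fold lower and 9 were neither. Over all 15609 genes so measured, 3.88% were higher by this rule and 12.4% lower. Fold calls used CPM with 5 CPM added to each side, and the median log2 ratio of the list was 1.06 in the dHet and 0.77 in the control library, beside -0.25 and -0.30 over all genes. Pitx1, a homeodomain factor of the whole pituitary that activates Cga, stood at 673 CPM in dHet and 859 CPM in control members, against 0.698 and 2.06 CPM in the other cells. It was found in 57 of the 58 members with at least 2000 UMIs.

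Gata2, which acts in thyrotrophs and gonadotrophs, stood at 283 CPM in dHet and 304 CPM in control members, against 0.126 and 0.544 CPM in the rest. Foxl2, a forkhead factor of Cga-producing pituitary cells, stood at 130 and 99.0 CPM, against 0.0838 and 0.192 CPM. Both were seen in most members, Gata2 in 52 and Foxl2 in 39 of 65. Lhx3, a LIM factor of the pituitary anlage, stood at 126 and 72.2 CPM with UMIs in 26 members. Insm1, a factor of endocrine differentiation, stood at 193 and 215 CPM with UMIs in 47 members.

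Several other pituitary factors, among them factors of other anterior lobe lineages, were at or near 0. Pou1f1, the factor on which anterior lobe thyrotrophs, somatotrophs and lactotrophs depend, had 0 UMIs in members of either library, where a count of 0 allows up to 13.5 CPM in dHet and 5.03 CPM in control members. Neurod4 and Lhx4 also had 0 UMIs, Tbx19 of corticotrophs had 0 and 1, and Nr5a1 of gonadotrophs had 1 and 0. Six6, the 1 factor called lower, stood at 17.9 CPM in dHet and 8.39 CPM in control members, against 125 and 127 CPM in the rest.

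Epithelial surface genes were higher in members as well. Of 10 measured genes of this list 7 were at least 2-fold higher in members in both libraries and 0 lower. Of all measured genes, 3.88% were higher and 12.4% lower. Epcam, an adhesion molecule of epithelia, stood at 955 CPM in dHet and 1309 CPM in control members, against 5.43 and 14.8 CPM in the rest, and was also found in 57 of the 58 deeper members. The keratin Krt18 stood at 269 and 322 CPM, against 9.72 and 13.9 CPM. The claudins Cldn7 and Cldn9, named because they ranked among the 30 genes with the highest ratios, stood at 256 and 294 CPM and at 224 and 319 CPM.

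**Figure D2:**
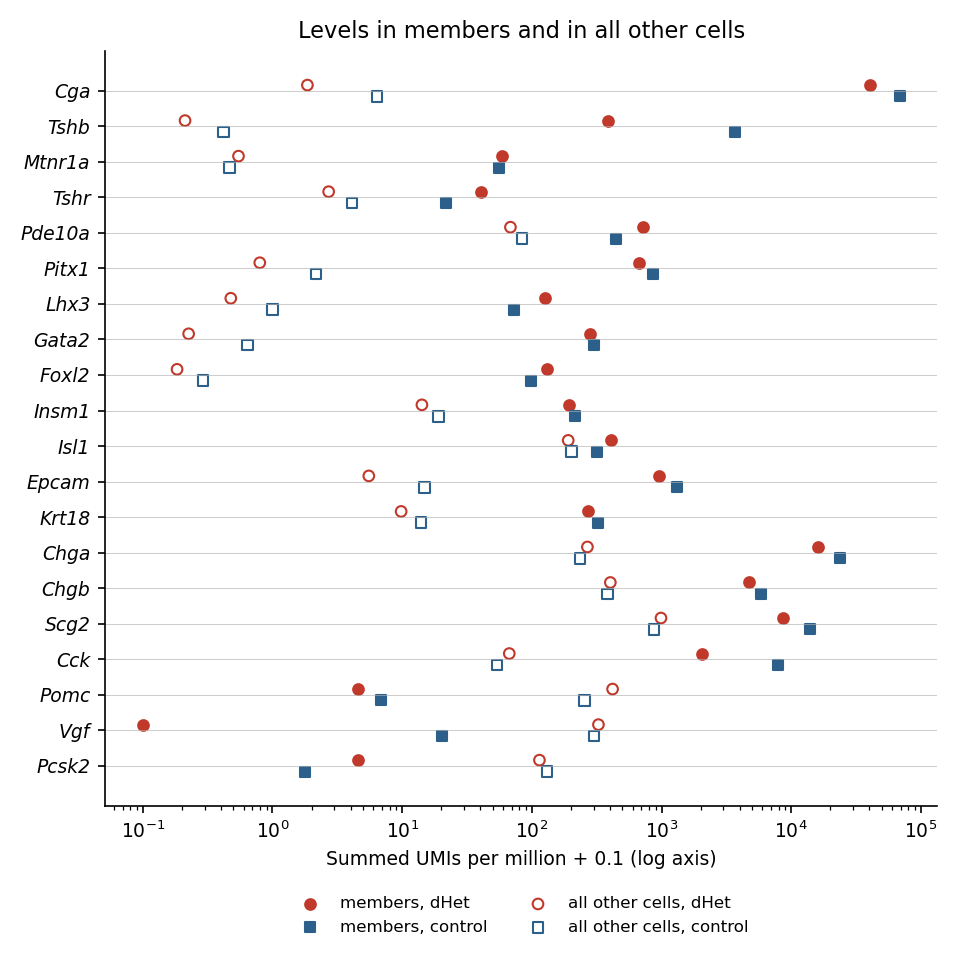
Summed levels in CPM (plus 0.1, log axis) of hormone, receptor, transcription factor, surface and granule genes in dHet members, control members and all other cells of each library. Filled and open symbols of a gene lie furthest apart for Cga and Tshb, while Pomc, Vgf and Pcsk2 are lower in members.

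The melatonin receptor gene Mtnr1a was present at low counts. It had 13 UMIs in 6 of 21 dHet members and 33 UMIs in 16 of 44 control members, or 58.3 and 55.4 CPM, against 0.447 and 0.368 CPM in the other cells. Of members 33.8% had a UMI, against 0.694% of all other cells, which were deeper (median 17012 UMIs), and 0% of Rax cells, which were shallower (median 9091 UMIs). Of the 22 members with a Mtnr1a UMI, 19 had Cga of 500 CP10K or more. Mtnr1b, the gene of the second melatonin receptor, had 0 UMIs in members.

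Of 17 genes of melatonin receptors and cyclic AMP signalling, 3 were higher and 2 lower in both libraries, beside 3.88% and 12.4% of all measured genes. The higher ones besides Mtnr1a were Pde10a and Adcy5. Pde10a, a phosphodiesterase, stood at 722 CPM in dHet and 446 CPM in control members, against 68.3 and 83.7 CPM. Adcy5, an adenylyl cyclase, stood at 85.2 and 94.0 CPM, against 29.3 and 26.8 CPM. The inhibitory G protein gene Gnai1 was lower, at 31.4 and 21.8 CPM against 220 and 228 CPM, and so was Prkar2b, a regulatory subunit of protein kinase A, at 31.4 and 18.5 CPM against 113 and 112 CPM. Gnas, the stimulatory G protein gene, stood at 2386 and 2584 CPM, against 2756 and 2902 CPM, less than 2-fold apart.

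In the thyroid axis the thyrotropin receptor gene Tshr was the 1 gene of 14 called higher, and 5 were called lower, beside 3.88% and 12.4% of all measured genes. Tshr had 9 UMIs in dHet and 13 UMIs in control members, 40.4 and 21.8 CPM, found in 17 members, against 3.26 CPM in all other cells. Rax cells stood at 47.4 CPM, above the members of either library. Trhr, the receptor for thyrotropin-releasing hormone, had 0 UMIs in members, and the deiodinase genes Dio2 and Dio3 had 1 and 0 UMIs over both libraries. Crym, a thyroid hormone-binding protein of tanycytes, had 0 UMIs in members against 48.1 and 57.7 CPM in the rest. Thra, the gene of the alpha thyroid hormone receptor, was lower, at 170 CPM in dHet and 95.7 CPM in control members against 476 and 498 CPM.

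Granins dominated the secretory genes that were higher. Chga, which drives granule formation, stood at 15968 CPM in dHet and 23616 CPM in control members, against 268 and 236 CPM in the rest. Chgb stood at 4728 and 5823 CPM, against 403 and 383 CPM, and Scg2, the precursor of secretoneurin, at 8580 and 13972 CPM, against 991 and 875 CPM. Of 32 granule and peptide processing genes 5 were higher and 13 lower, beside 3.88% and 12.4% of all measured genes. The higher ones were these 3 granins with Rab3b and Rab27a. The lower ones included the release genes of neurons Snap25, Vamp2 and Rab3a, and Pcsk2, a convertase that cuts many neuropeptide precursors, with 1 UMI in each library's members against 114 and 130 CPM in the rest. Vgf, a neuropeptide precursor, had 0 and 12 UMIs in members against 326 and 301 CPM. Genes of glycosylation and folding, through which the hormone subunits pass, mostly moved less than 2-fold: of 29, Lman1, a cargo receptor for glycoproteins, was higher at 202 and 257 CPM against 73.8 and 84.2 CPM, and 1 gene was lower.

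Among 21 candidate messengers of the pars tuberalis, 2 were higher and 2 lower, beside 3.88% and 12.4% of all measured genes. Cck, the cholecystokinin precursor, stood at 2054 CPM in dHet and 7906 CPM in control members, against 66.9 and 53.9 CPM in the rest. Its values ran from 0 to 65.1 CP10K in dHet members (median 14.03) and from 0 to 379 CP10K in control members (median 65.6). Nmu, neuromedin U, stood at 17.9 and 11.7 CPM against 2.18 and 2.35 CPM, from 11 UMIs in all. The tachykinin precursor Tac1 was lower, with 0 and 16 UMIs in members against 216 and 162 CPM in the rest, and Cnr1, a cannabinoid receptor gene, was lower too.

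Several genes outside the lists ranked among the 30 highest. Apoc3, an apolipoprotein known from liver, stood at 552 CPM in dHet and 1989 CPM in control members, against 1.28 and 1.47 CPM, and the members held 87.7% of its UMIs. Ces1d, a carboxylesterase, stood at 767 and 500 CPM, against 0.656 and 1.12 CPM. Vegfd, a growth factor of lymphatic vessels, stood at 323 and 607 CPM, against 0.545 and 0.416 CPM. Wfdc2, a secreted protease inhibitor-like protein of epithelia, stood at 951 and 411 CPM, but 71.1% of its member UMIs came from 5 cells. Cxcl14, a chemokine, stood at 794 and 1353 CPM, against 19.5 CPM over all other cells. Among genes of at least 100 CPM in the rest, the 10 with the lowest ratios included Cited1, Calb2, Slc32a1 and 6 genes of neuropeptides or their precursors (Agrp, Npy, Sst, Ghrh, Avp and Pomc).

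Receptors known from pituitary endocrine cells were mostly at or near 0. Of 20 measured ones 2 were at least 2-fold higher in members in both libraries and 8 lower, beside 3.88% and 12.4% of all measured genes. Igf1r, the receptor for insulin-like growth factor 1, stood at 197 CPM in dHet and 153 CPM in control members, against 32.8 and 36.0 CPM in the rest, and was found in 53 of 65 members. The dopamine receptor Drd2, the adenosine receptors Adora2a and Adora2b, the leptin receptor Lepr and the gonadotropin-releasing hormone receptor Gnrhr had 0 UMIs in members of both libraries. Gabbr1, a subunit of the metabotropic GABA receptor, stood at 58.3 CPM in dHet and 104 CPM in control members, against 395 and 388 CPM. Igfbp5, which binds insulin-like growth factors, was among the 30 highest genes, at 1893 CPM in dHet and 2138 CPM in control members, against 124 and 138 CPM. Cdkn1c, an inhibitor of the cell cycle, stood at 879 and 1576 CPM, against 41.6 and 50.96 CPM, and Timeless, a partner of replication forks, at 287 and 237 CPM, against 2.12 and 3.46 CPM.

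The driver gene Ins2 itself had 0 UMIs in members, against 0.573 CPM in the other dHet cells and 0.800 CPM in the other control cells. Transcripts assigned to Gt(ROSA)26Sor, the usual site of the reporter, stood at 58.3 CPM in dHet and 102 CPM in control members, against 21.9 CPM in the rest of each library.

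Of 23 clock and photoperiod genes, 8 were at least 2-fold higher in members in both libraries and 0 lower. Over all measured genes 3.88% were higher and 12.4% lower. The median log2 ratio of the list was 0.93 in the dHet and 1.24 in the control library, beside -0.25 and -0.30 over all genes. Hlf, a D-box binding output factor of the clock, stood at 520 CPM in dHet and 388 CPM in control members, against 29.5 and 33.9 CPM. Rorb, a nuclear receptor of clock loops, stood at 534 and 846 CPM, against 86.5 and 93.6 CPM. Nr1d1, a repressor of the clock, stood at 49.3 and 75.5 CPM, against 13.9 and 15.97 CPM. Dbp, another output factor, stood at 148 and 490 CPM, against 62.8 and 79.3 CPM, and Per2, a core repressor, at 22.4 and 20.1 CPM, against 7.15 and 5.62 CPM. The called genes also included Eya1 and Eya4 of the photoperiod set. In Rax cells Hlf stood at 101 CPM, Rorb at 165 CPM and Dbp at 153 CPM, and for Dbp the dHet members lay close to this level. The sources used here do not give the time of day of dissection.

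Immediate early genes were higher too, 24 of 31 in both libraries and 0 lower, with median log2 ratios of 3.58 and 2.46. Fos stood at 3916 CPM in dHet and 1853 CPM in control members, against 99.1 and 293 CPM in the rest, and Egr1 at 1372.5 and 903 CPM, against 34.6 and 77.05 CPM. Egr1 stood at 225 CPM in Rax cells and at 33.5 CPM in the 4620 cells with at least 2 CP10K of the neuronal gene Snap25, and Fos at 871 and 135 CPM in the same cells. All cells of a library had gone through the same papain digestion, and the part of that handling in these levels was not tested. Of 12 heat shock genes 4 were higher, Hspa1a, Hspa1b, Hspb1 and Dnajb1, and 1 was lower, with Hspa1a at 350 CPM in dHet and 411 CPM in control members, against 19.6 and 62.6 CPM. Of 18 glutathione and metallothionein genes 0 were higher and 3 lower. Of 23 cholesterol synthesis genes 1 was higher and 7 were lower. Over all measured genes 3.88% were higher and 12.4% lower.

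Lists of cell type markers were compared in the same way. All 8 pars tuberalis markers were higher in members in both libraries, although Cga among them had chosen the cells. All 11 neuron markers and all 10 astrocyte markers were lower, as were 8 of 10 oligodendrocyte lineage markers, beside 12.4% of all measured genes. Of 9 microglia markers 8 were at 0 in members, as were 6183 of all 20210 genes, but 0 were called lower. The microglia list summed to only 7.29 CPM in the other dHet cells and 16.3 CPM in the other control cells, too low for a 0 to show a difference. The neuron list summed to 1009 CPM in dHet and 636 CPM in control members, against 5895 and 5773 CPM in the rest. The astrocyte list summed to 121 and 154 CPM, against 980 and 1067 CPM. The tanycyte list summed to 274 and 317 CPM, against 273 and 366 CPM. Crym, Slc17a8 and Frzb of this list had 0 UMIs in members, and Rax had 1 and 4. Cldn10 held most of the sum at 188 and 238 CPM. It was found in 15 members, but 5 of them held 86.4% of its UMIs. Of 8 pituicyte or folliculostellate markers, 2 were higher in both libraries (Fst, an activin-binding protein, and Lgals3, a galectin), 2 were lower and 4 neither. That list summed to 197 CPM in dHet and 94.0 CPM in control members, against 256 and 316 CPM, and its cytoplasmic marker S100b had 0 and 2 UMIs in members. The fibroblast list summed to 498 CPM in dHet and 21.8 CPM in control members, against 51.1 and 85.3 CPM.

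**Figure D3:**
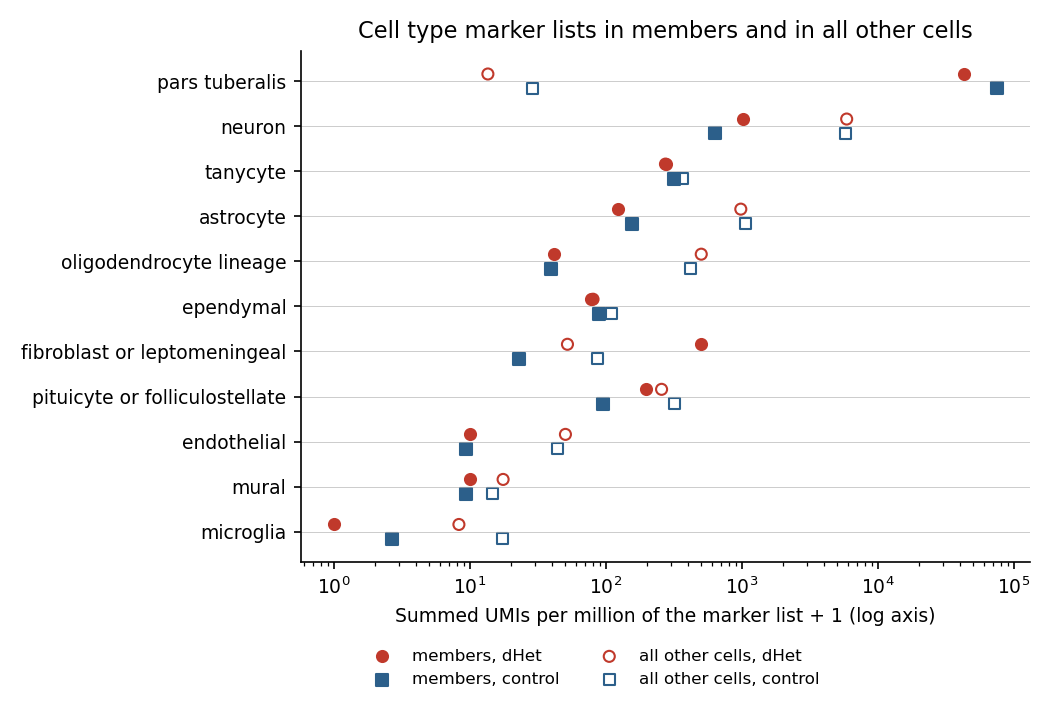
Summed levels in CPM (plus 1, log axis) of 11 cell type marker lists in members (filled) and all other cells (open) of the dHet and control libraries. The pars tuberalis list is higher in members, the neuron, astrocyte and oligodendrocyte lists are lower, and the fibroblast list is at 498 CPM in dHet members and 21.8 CPM in control members.

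Some members carried genes of other cells or lacked endocrine ones. At least 3 UMIs of Cyr61, a matrix protein gene, were found in 9 of 65 members, 5 dHet and 4 control. No UMI of Chga, Chgb or Scg2 was found in 3 dHet and 2 control members, and these 5 had no Tshb UMI either. The 3 dHet cells, each of over 2000 UMIs, had Sox2 UMIs and at least 3 Cyr61 UMIs, and both control cells had fewer than 2000 UMIs. A control member with 811 CP10K of Cga, singled out after its values were seen, had 0 Tshb and 0 Cck UMIs, but 215 Epcam, 94 Wfdc2, 87 Cldn10 and 98 Cyr61 UMIs. In each library 1 member had at least 9 UMIs each of the neuronal genes Snap25 and Syt1, and 3 control members had at least 3 UMIs of Gad2, the GABA synthesis gene. In the dHet library 1 member had at least 3 UMIs of the fibroblast gene Dcn, and another 1 carried 36 Mki67 UMIs and 41 Top2a UMIs, both genes of dividing cells. No control member had a UMI of Mki67 or Top2a. No member had 3 or more UMIs of Rax or of the astrocyte gene Slc1a3.

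Members differed widely among themselves, and several genes differed with the Cga level. The ranges below were set after the values were seen, and 11 members lay between 400 and 600 CP10K, near the upper boundary. Median UMIs per cell were 9242, 11313.5 and 13495 from the lowest range to the highest. The 10 members with Cga from 20 to 100 CP10K, 4 dHet and 6 control, had 0 Tshb UMIs. Of 18 members from 100 to 500 CP10K, 10 dHet and 8 control, 12 had a Tshb UMI, and of 37 members at 500 CP10K or more, 7 dHet and 30 control, 33 did. Chga stood at 3306 CPM in dHet and 985 CPM in control members of the lowest range, and at 31500 and 28585 CPM in the highest. Cck stood at 89.3 CPM in dHet and 551 CPM in control members of the lowest range, and at 4257 and 10287 CPM in the highest. Apoc3 was at 0 and 188 CPM in the lowest range and 1222 and 2488 CPM in the highest. Levels of Pitx1 differed less between the ranges, with 481 CPM over both libraries in the lowest and 953 CPM in the highest.

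Other genes were found mainly where Cga was low. Sox2, a factor of pituitary stem cells and of neural progenitors, had a UMI in 5 of 10 members of the lowest range, in 8 of 18 of the middle range and in 0 of 37 of the highest. Cyr61 stood at 1653 CPM in dHet and 1246 CPM in control members of the lowest range, and at 0 and 231 CPM in the highest. Fos stood at 6656 and 4144 CPM in the lowest range and at 2880 and 1445 CPM in the highest. Neuronal Gad2 had 4 cells in all, 2 of them in the lowest range. Just below the rule lay a control cell with 40 Cga, 8 Pitx1 and 107 Epcam UMIs and 0 Tshb UMIs among 25946 UMIs.

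**Figure D4:**
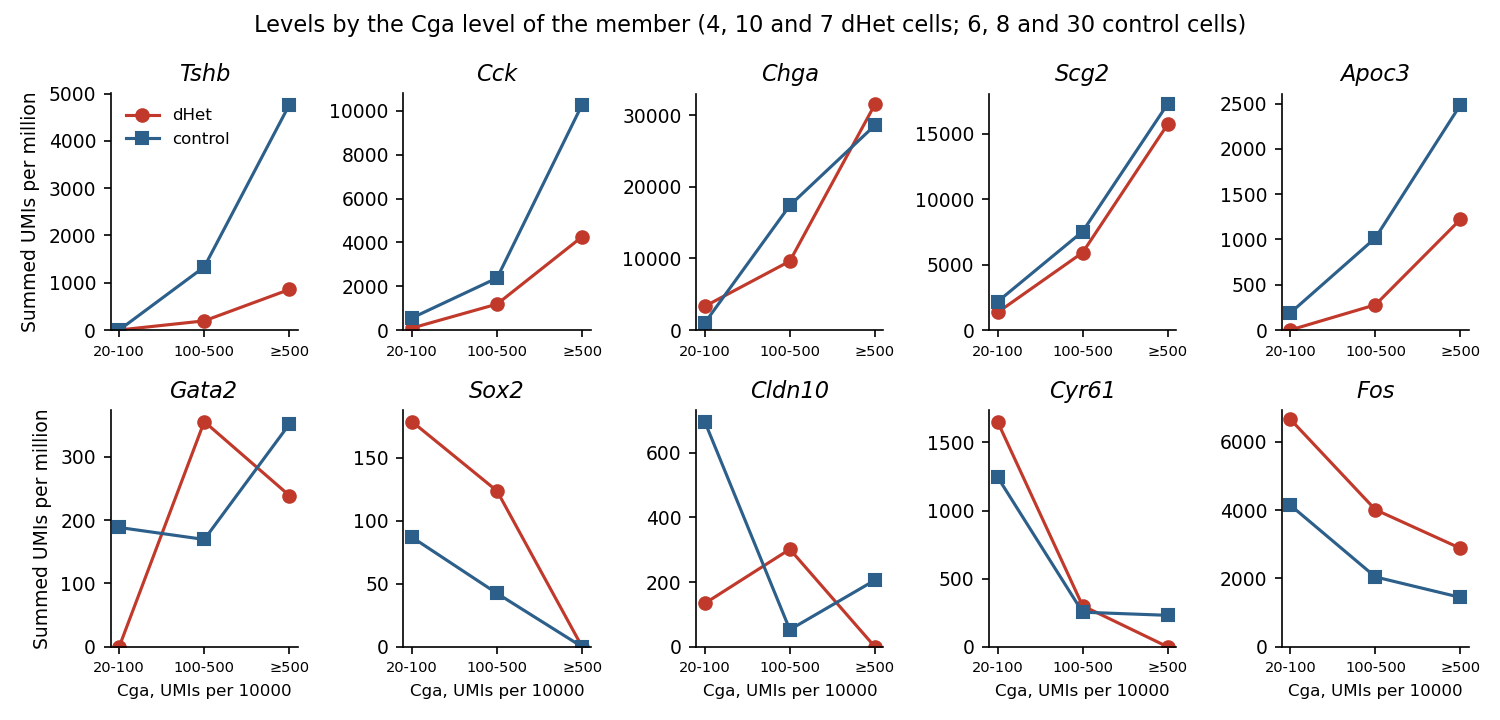
Summed levels in CPM of 10 genes in members grouped by their own Cga level (20 to 100, 100 to 500, and 500 or more CP10K), for the dHet and control libraries. Tshb, Cck, Chga, Scg2 and Apoc3 are higher where Cga is higher in both libraries, Sox2, Cyr61 and Fos are lower there, and the lowest range holds only 4 dHet and 6 control cells.

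Across the 58 members with at least 2000 UMIs, the CP10K values of Cga and Tshb had a Spearman rho of 0.68 over both libraries, 0.50 among 18 dHet and 0.72 among 40 control members. Cga and Chga had 0.89 among dHet and 0.55 among control members, and Tshb and Cck had 0.49 and 0.75. These are descriptions over cells of 1 library each, which share its preparation. By the variance over the mean of counts thinned to 4000 UMIs per cell, the 15 most uneven genes were Cga, Malat1, Chga, Wfdc2, Tshb, Cck, Scg2, Meg3, Apoe, Chgb, Snhg11, Fos, Cyr61, Resp18 and Cdkn1c. For Tshb the 5 members with most UMIs held 59.4% of its 2273 UMIs, and all 5 were control members; for Pitx1 the top 5 held 22.7% of 662 UMIs.

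Between the genotypes, 2459 genes with at least 50 UMIs in members were compared, of which 2.56% were at least 2-fold higher and 2.6% at least 2-fold lower in dHet members, with a median log2 ratio near 0. Of the 385 genes with at least 200 UMIs found in at least 25% of members, Tshb had the lowest ratio, 86 UMIs in dHet and 2187 UMIs in control members, 0.105 times the control level (0.0837 to 0.130). Its log2 ratio of -3.23 was -2.06 without the 5 members with the most Tshb UMIs and -2.47 among members with Cga of at least 500 CP10K. It was -1.95 when barcodes left out of the merged table were added, 1 of which held 170 Tshb UMIs. Cck had 458 UMIs in dHet and 4711 UMIs in control members, 0.260 times (0.236 to 0.286), Apoc3 123 and 1185, 0.277 times (0.229 to 0.334), and Mthfd2, a mitochondrial folate enzyme gene, 22 and 230, 0.256 times. The log2 ratio of Cck, -1.94, was -1.03 with the added barcodes and -1.27 among members with Cga of at least 500 CP10K, and that of Apoc3, -1.84, was -1.24 and -1.02 under the same settings. Cga, which itself chose the cells, differed less, at 0.590 times the control level. Mtnr1a stood at 58.3 CPM in dHet and 55.4 CPM in control members. Among members with Cga of at least 500 CP10K, Mtnr1a stood at 169 CPM in dHet (12 UMIs) and 67.1 CPM in control members (29 UMIs).

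The libraries differed in the makeup of their members, since 7 of 21 dHet and 30 of 44 control members had Cga of 500 CP10K or more, and both Tshb and Cck were higher in that range. Within it, Cga, which set the range, stood at 87657 CPM in dHet and 85561 CPM in control members, and Tshb at 857 and 4765 CPM. The median Tshb value of these cells was 2.33 CP10K in dHet and 25.97 CP10K in control members. The ratio of Tshb to Cga UMIs was 9.55 per 1000 in dHet members (7.63 to 11.8) and 53.6 per 1000 in control members (51.3 to 56.0). In all other cells, where a few UMIs can come from free RNA, it was 63.5 per 1000 in the dHet library (26.8 to 129, from 8 Tshb UMIs) and 50.9 per 1000 in the control library (30.7 to 79.7, from 20). These cells included 18 with Cga of 5 to 20 CP10K, which held 168 Cga and 0 Tshb UMIs, and 9 of them had a Pitx1 UMI. Among other cells with Cga under 5 CP10K the ratio was 71.4 per 1000 in the dHet library (30.1 to 146) and 83.7 per 1000 in the control library (50.2 to 132). How far 21 captured dHet cells stand for the cells of that tissue was not tested.

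**Figure D5:**
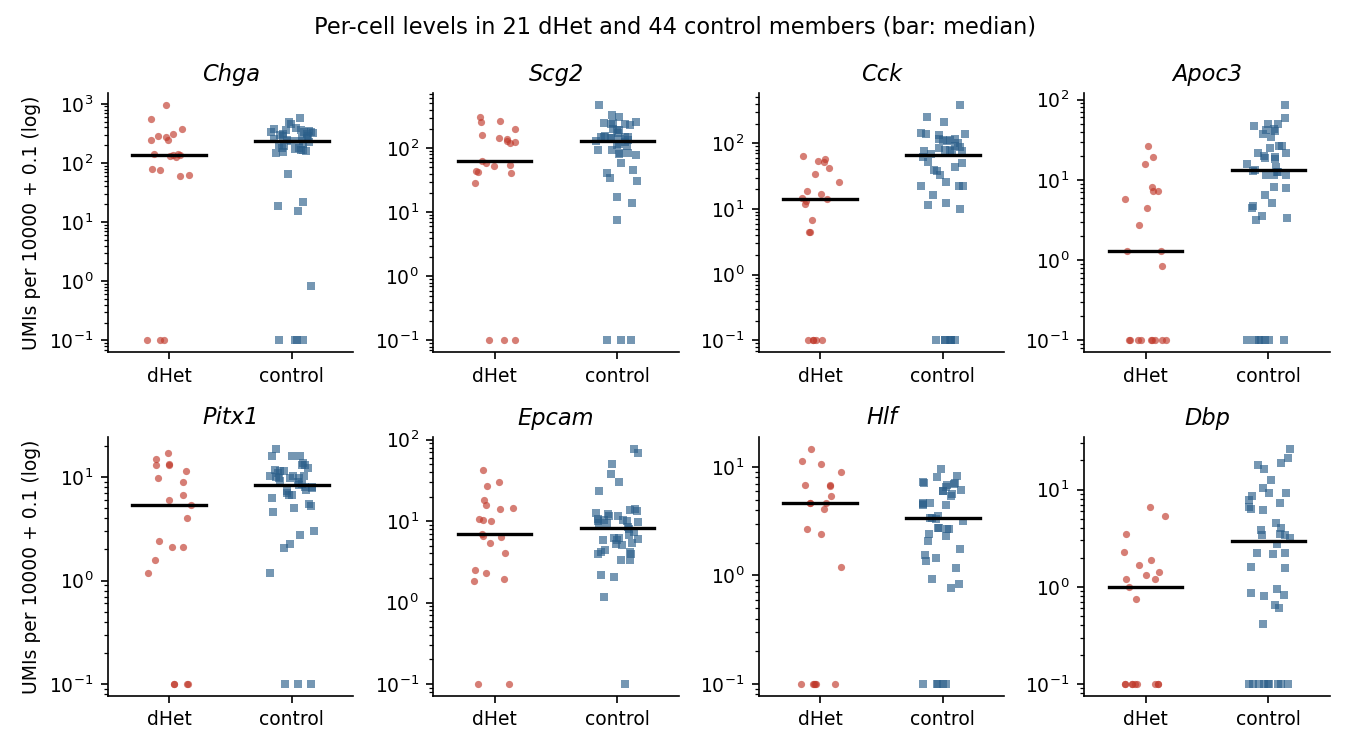
UMIs per 10000 plus 0.1 (log axis) of 8 genes in each of 21 dHet and 44 control members, with a bar at the median. All 8 genes overlap between the libraries; the medians (dHet, then control) of Cck (14.03 and 65.6) and Apoc3 (1.20 and 13.1) differ more than those of Pitx1 (5.27 and 8.34) and Epcam (6.82 and 8.15).

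Of 10 clock and photoperiod genes with enough UMIs in members, 4 were at least 2-fold lower in dHet members and 0 higher. Of all 2459 genes compared, 2.6% were lower and 2.56% higher. Dbp had a median of 0.885 CP10K in dHet and 2.86 CP10K in control members and a ratio of summed levels of 0.302 (0.204 to 0.434). Its log2 ratio of -1.69 was -1.19 without the 5 members with the most Dbp UMIs, and -3.63 among members with Cga of at least 500 CP10K, where dHet members had 3 Dbp UMIs. In that range 117 of 1295 genes were called lower and 24 higher. Among members with Cga from 20 to 100 CP10K, Dbp stood higher in dHet, at 268 CPM (6 UMIs), than in control members, at 145 CPM (10 UMIs). Per3 stood at 80.7 CPM in dHet and 181 CPM in control members and Tef at 53.8 and 114 CPM, while Hlf stood at 520 and 388 CPM. Of 22 immediate early genes with enough UMIs 5 were at least 2-fold higher in dHet members (Fos, Ier2, Dusp1, Klf4 and Gadd45g) and 1, Atf3, was lower. Fos had a median of 39.1 CP10K in dHet and 11.1 CP10K in control members, Ier2 9.78 and 3.08, and Dusp1 stood at 341 CPM in dHet and 90.6 CPM in control members. Over all settings the log2 ratio of Fos in members lay between 0.99 and 1.39 and that of Ier2 between 1.00 and 1.38. In all other cells both were lower in the dHet library, Fos at 99.1 CPM in dHet and 293 CPM in control cells, and Ier2 at 19.5 and 38.6 CPM. Atf3, at -1.33, was at -0.17 without the 5 members with its most UMIs, and Klf4, at 2.13, was at 0.74 without its own.

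Apoe had the highest ratio, 14.1 times, yet 84.6% of its UMIs came from 5 members, the medians were 0 in both libraries, and the log2 ratio of 3.74 was -0.97 among members with Cga of at least 500 CP10K, which had 1 UMI in dHet and 14 UMIs in control members. Tubb5 and Rtn1, also among the 10 highest, and Wfdc2 changed sign under at least 1 other setting. Cell cycle genes summed to 1346 CPM in dHet and 63.8 CPM in control members, and 1 dHet member held 94.3% of the dHet UMIs of this list. The neuron list was higher in dHet members, as given above, but 1 of them held 69.8% of its UMIs, and without that member the list stood at 347 CPM. For the fibroblast list the top dHet member held only 27.0% of the dHet UMIs. Without that member the list stood at 379 CPM in dHet members, against 21.8 CPM in all control members. The part of these cells in the genotype ratios was not tested.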

How the data were processed

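Droplet libraries (Chromium 3' v3 chemistry) were made from sorted cells of 1 pool per genotype. The deposited files hold raw UMI counts per gene and cell, made with Cell Ranger 3.0.2 per the file headers and the mm10 build per the submitters' processing notes; the sources used here do not name the gene annotation. The merged table of counts was used, and it differed from the sample matrices in 620 of 18194966 dHet and 863 of 15860489 control entries above 0. Gene positions came from GENCODE (GRCm38) and upstream sequences from RefSeq (GRCm38.p6).

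Levels are summed UMIs per 1000000 UMIs (CPM), compared as log2 ratios with 5 CPM added, in Python 3.11.15 with scipy 1.17.1. With 1 library per genotype no test was possible, so genes were called by a 2-fold ratio, in both libraries for members against the rest. Intervals are 95% exact binomial ones (Clopper-Pearson for shares, conditional for ratios), which cover counting error only, since cells of 1 pool are not replicates. Doublets were marked per library with Scrublet (scanpy 1.11.5) and kept in the main values. Per-cell levels and shares were not thinned; the ranking of uneven genes and 1 alternative used counts thinned to 4000 UMIs. The calculation was tested on simulated data.

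Genes were named from fixed lists and by rank: the 30 highest and 10 lowest ratios of members over the rest, the 10 highest and 10 lowest of dHet over control, and the 15 most uneven among members. Members and lists were chosen with earlier results of these data known. Alternatives were the Cga threshold, cell weighting, thinning, the added CPM, doublets, count filters and the barcodes used. Some genes of the lists are not reported here.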

Additional observations from a re-analysis of the deposited data

Results flagged for a closer look

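Barcodes of the sample matrices with at least 20 CP10K of Cga that the merged table leaves out held 4338 Cga UMIs in the dHet library and 1304 Cga UMIs in the control library, a signal outside the cells compared above. In the dHet library these were 3 barcodes. The largest, with 99513 UMIs and 9.38% mitochondrial UMIs, held 4154 Cga, 170 Tshb, 577 Cck, 119 Pitx1 and 120 Epcam UMIs, which is more Tshb than the 86 UMIs of the 21 dHet members together, and it had 14 Snap25 UMIs. The other 2 had 977 and 868 UMIs and mitochondrial shares of 51.6% and 48.0%. In the control library there were 2 such barcodes, with 69433 and 56057 UMIs. The barcode with 69433 UMIs had 479 Cga and 0 Tshb UMIs, and that with 56057 UMIs had 825 Cga, 26 Tshb and 58 Snap25 UMIs. The doublet caller did not score the 2 dHet barcodes with 977 and 868 UMIs, since their mitochondrial shares were above its limit of 20%. It marked none of the other left-out barcodes. Added to the members, the 5 barcodes gave Tshb 792 CPM in the dHet and 3068 CPM in the control library. Their Tshb to Cga ratio was 39.4 per 1000 in the dHet and 19.9 per 1000 in the control library.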

How the results depend on the processing

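The ratio of the share of members, dHet over control, stayed between 0.321 and 0.422 under the 6 other settings of threshold, barcodes, doublets, depth and Tshb. Genes called higher in members than in the rest numbered 605, and 935 with 1 CPM and 278 with 20 CPM added; those called lower numbered 1939, and 3241 and 930 under the same settings. Between genotypes, 63 genes were called higher and 64 lower in dHet members. With cells weighted equally the counts were 122 and 183, with cells thinned to 4000 UMIs 8 and 20 of 564 genes, with at least 200 UMIs 7 and 9 of 480, and among members with Cga of at least 500 CP10K 24 and 117 of 1295; with 20 CPM added 37 were lower. Reversals among the 23 single genes followed were Rtn1, at -0.074 with equal weights and -1.31 with the left-out barcodes added, Tubb5, at -0.14 without the 5 members with its most UMIs and -0.090 with the left-out barcodes, Wfdc2, at -1.68 among members with Cga of at least 500 CP10K and -0.16 without its top 5 members, and in that range also Apoe at -0.97 and Hspb1 at -3.65 (all log2); the cause was not tested. The share of members with a Tshb UMI was 69.2%, and 73.8% at a threshold of 40 CP10K. The settings of Cga of at least 500 CP10K, of 2000 UMIs, of top members and of left-out barcodes were chosen after seeing the data. No paired analysis was possible because each genotype had 1 pool. With 222951 UMIs in all dHet members, a gene with 0 UMIs may stand at up to 13.5 CPM there.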
